A study of Mus musculus with 24 samples.

Results

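Cytochrome P450 enzymes were followed in the cortex of 24 mice by RNA-seq, with 1 library per mouse. In the gene table, 94 symbols of 43346 genes have the form of a mouse P450 gene name (Cyp, a family number, a subfamily letter and a gene number). Of these 94, the 36 with at least 10 raw counts in at least 6 of the 24 libraries are described here. The mice formed 4 groups of 6: mice labelled Abca7 that received LPS (lipopolysaccharide, a bacterial membrane component that triggers innate immune signalling), control mice that received LPS, mice labelled Abca7 with no stimulus, and control mice with no stimulus. The series text calls the labelled Abca7 mice heterozygous for Abca7, an ABC lipid transporter, and the study asked how Abca7 relates to brain inflammation. The strain and allele of the mice, and the LPS dose, route and timing, were not stated in the sources at hand. The mice were 54 to 56 days old in both LPS groups, 55 to 58 days old in the labelled Abca7 group without LPS and 55 to 57 days old in the control group without LPS. Each title carries its own animal number, and each library was therefore counted as a separate animal.

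Cytochrome P450 enzymes are heme proteins that insert oxygen into lipids, hormones and foreign compounds. Those of the endoplasmic reticulum receive electrons from P450 oxidoreductase (Por) and cytochrome b5, and those of mitochondria from ferredoxin and its reductase. In the liver the family is known for drug clearance, and in many tissues its transcripts fall during inflammation. In the brain it is known for removing cholesterol as an oxysterol, for breaking down retinoic acid, and for oxidising arachidonic acid and steroids.

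Libraries held 48149131 to 75741388 counts. Neuronal markers (10 of 10 detected, summed level 7710 to 8840 CPM, which are counts scaled to a common library total) and astrocyte markers (10 of 10, 4150 to 5180 CPM) were abundant in every library. The labelled Abca7 mice did not have less Abca7 RNA. It averaged 29.4 ± 2.30 CPM in labelled Abca7 mice and 24.5 ± 2.66 CPM in control mice under LPS (SD, n = 6 each), and 32.1 ± 2.07 against 28.6 ± 2.22 CPM without LPS. Counts over a whole gene do not show the loss of a few exons. The library of labelled Abca7 LPS replicate 4 stood apart. It held 760.2 CPM of S100b, a glial calcium-binding protein, against 64.8 to 82.9 CPM in the other 23 libraries. For some genes in which it lay apart from its group, the change without it is given too. The summed choroid plexus markers also varied widely, with medians of 316 CPM in labelled Abca7 mice with LPS, 457 CPM in labelled Abca7 mice without LPS, 307 CPM in control mice with LPS and 29.2 CPM in control mice without LPS. Tissue was bulk cortex, in which fewer cells of a type and less RNA per cell cannot be told apart.

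The sequences before 3 genes are shown for the strongest rise, the fall called in both genotypes and the highest level among the P450 genes. They are RefSeq windows on GRCm38.p6, read 5′ to 3′ on the gene's strand, without bases that lie inside the gene in the deposited table or in GENCODE M21. Capitals mark matches, on either strand, to GCGTG (the core bound by the aryl hydrocarbon receptor, AhR), to TTCNNNGAA (a STAT element) or to TATAAA (a box found near many start sites).
Cyp1b1: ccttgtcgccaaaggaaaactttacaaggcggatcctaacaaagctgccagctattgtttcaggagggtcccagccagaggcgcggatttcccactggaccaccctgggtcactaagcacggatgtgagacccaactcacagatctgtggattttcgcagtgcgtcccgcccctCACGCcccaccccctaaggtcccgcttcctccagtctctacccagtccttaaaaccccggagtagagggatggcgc
Cyp26b1: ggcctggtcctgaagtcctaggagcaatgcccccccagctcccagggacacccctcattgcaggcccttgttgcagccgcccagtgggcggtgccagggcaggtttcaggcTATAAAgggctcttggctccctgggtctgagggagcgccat
Cyp46a1: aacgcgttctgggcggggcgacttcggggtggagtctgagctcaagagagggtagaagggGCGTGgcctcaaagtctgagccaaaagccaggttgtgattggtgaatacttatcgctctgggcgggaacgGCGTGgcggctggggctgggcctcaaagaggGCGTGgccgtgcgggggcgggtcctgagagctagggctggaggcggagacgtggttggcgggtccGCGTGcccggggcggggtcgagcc
The Cyp1b1 window lies at chr17:79715062-79715311, minus strand. It holds 1 AhR core, on the reverse strand, 72 bases before the gene as GENCODE M21 draws it, which begins upstream of the deposited coordinates. The Cyp26b1 window lies at chr6:84593909-84594060, minus strand, and holds a TATAAA match 36 bases before the gene. The Cyp46a1 window lies at chr12:108334066-108334315, plus strand, and holds 4 AhR cores. Over the whole 250 bases before the RefSeq start, a window was found for 29 of the 36 genes. As some genes have several starts, these made 35 windows. An AhR core occurred in 8 of the 35 windows (22.9%), against 28.2% of 32851 windows of the same length over all genes, and 3 or more cores occurred in 1 of the 35, against 2.77% of all windows. TATAAA occurred in 7 of the 35 windows, against 12.4% of all windows. The STAT element occurred in 4 of the 35 windows (11.4%), against 7.02% of all windows. Such a match is a run of letters, and no binding was measured.

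Cyp46a1 (ENSMUSG00000021259, chr12:108334377-108362231 on mm10), the neuronal enzyme that hydroxylates the side chain of cholesterol so that it can leave the brain, was far above every other P450 gene. Levels between genes are given as CPM per kilobase of the length in the deposited table, called coding length there, as mean ± SD over all 24 libraries. Cyp46a1 stood at 80.2 ± 5.42 CPM per kilobase and made up 57.1% of the summed level of the 36 genes. The drug-metabolising Cyp2d22 followed at 7.39 ± 0.461, then Cyp2j9 at 6.16 ± 0.531, Cyp4f15 at 5.17 ± 0.435 and Cyp2j6 at 5.09 ± 0.377 CPM per kilobase. Next came the orphan enzyme Cyp20a1 at 4.56 ± 0.320, Cyp4x1 at 4.29 ± 0.305 and the oxysterol hydroxylase Cyp7b1 at 4.18 ± 0.400 CPM per kilobase. In this order, the ranges over libraries overlapped between every pair of neighbours except Cyp46a1 and Cyp2d22, and Cyp7b1 and Cyp4f13. The lowest of the 36 was Cyp4f37 at 0.0577 CPM per kilobase. Relative spread was low in the 2 most abundant genes, with an SD of 6.24% of the mean for Cyp2d22 and 6.75% for Cyp46a1. It was 57.3% for Cyp1b1, whose groups differed.

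**Figure D1:**
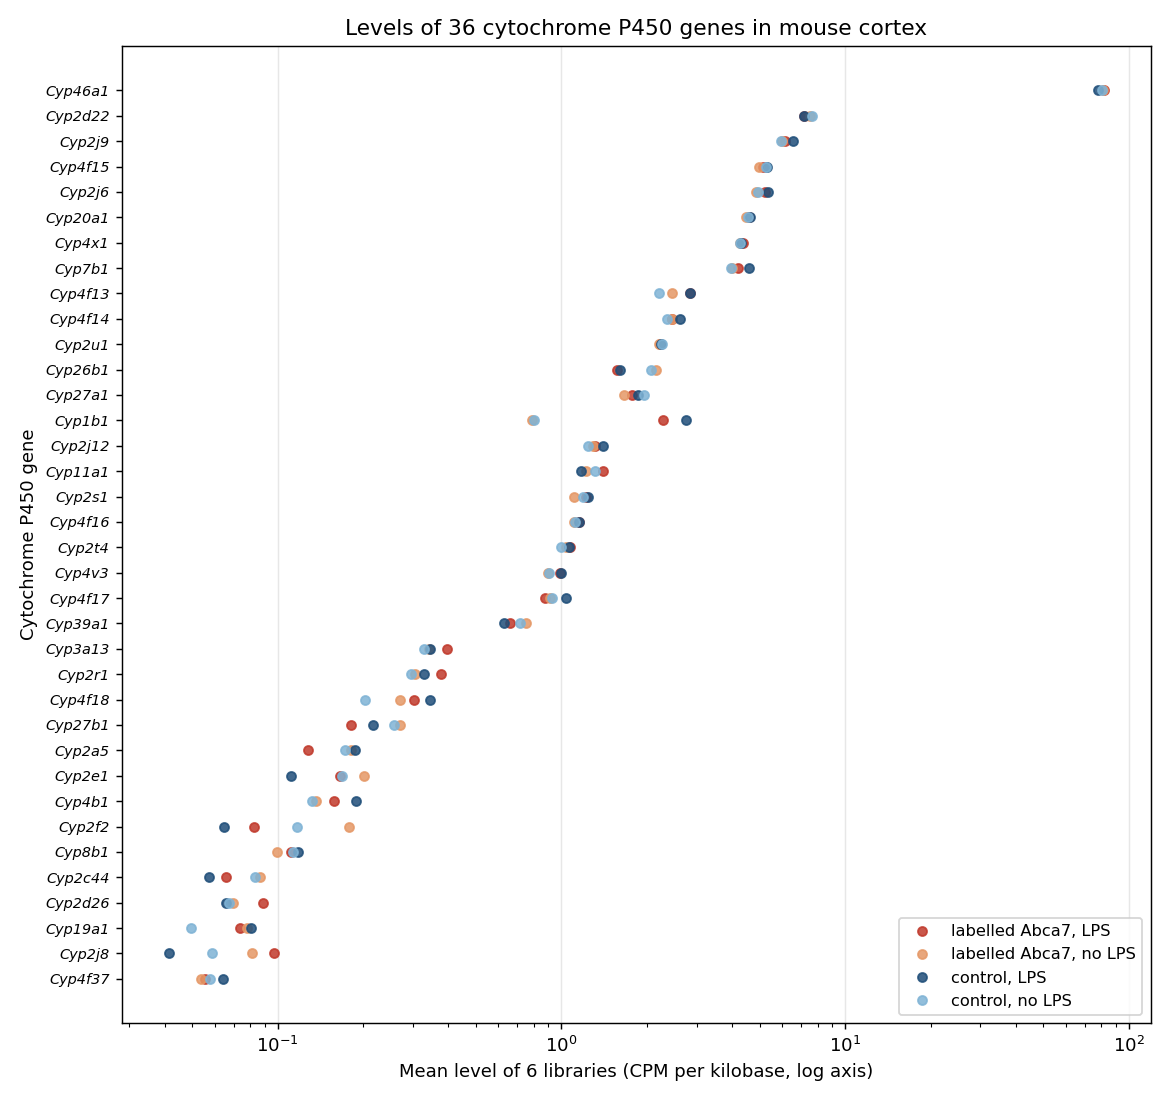
Mean level of each of the 36 P450 genes in each group of 6 libraries, in CPM per kilobase on a log axis, ordered by the mean over all 24 libraries. Cyp46a1 sits alone at the right near 80.2 CPM per kilobase, and the 4 groups of Cyp1b1 fall into an LPS pair and a pair without LPS.

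Many P450 genes of liver and adrenal were at or near 0. Of the 58 symbols below the threshold, 19 had no count in any library. A count of 0 over all libraries allows up to 0.00212 CPM (3 counts over the summed library totals, counting error only). The other 39 had at least 1 count. The bile acid enzyme Cyp7a1 and the liver enzyme Cyp1a2 had 8 counts each over all libraries. The AhR target Cyp1a1 had 140 counts, and its medians were 0.058 CPM in labelled Abca7 mice with LPS, 0.138 CPM in labelled Abca7 mice without LPS, 0.0637 CPM in control mice with LPS and 0.0748 CPM in control mice without LPS. The retinoic acid hydroxylases Cyp26a1 and Cyp26c1 had 152 and 73 counts, the vitamin D hydroxylase Cyp24a1 had 142 and the steroid enzyme Cyp17a1 had 88. By role, counts at or above the threshold were found for 5 of 6 oxysterol and bile acid hydroxylases, 15 of 26 enzymes of the CYP4, CYP2J and CYP2U groups, which oxidise fatty acids and eicosanoids, and 9 of 46 other CYP2 and CYP3 enzymes. They were found for 2 of 6 enzymes of steroid hormone synthesis, 2 of 3 of vitamin D, 1 of 3 of retinoic acid breakdown, 1 of 3 of the CYP1 family, and for Cyp20a1, which was in no role list.

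Of the 36 genes, 35 passed the filter of the test across 21891 genes, and Cyp2j8 did not, with 53 counts in labelled Abca7 mice with LPS, 41 in labelled Abca7 mice without LPS, 23 in control mice with LPS and 32 in control mice without LPS. A gene was called at an adjusted p under 0.05 (edgeR quasi-likelihood F test, Benjamini-Hochberg over all genes). In labelled Abca7 mice LPS changed 2 of the 35 (5.71%), against 11.8% of all genes. Cyp1b1 was higher, where 6.65% of all genes were higher, and Cyp26b1 was lower, where 5.18% were lower. In control mice LPS changed 5 of the 35 (14.3%), against 17.3% of all genes. Cyp1b1, Cyp4f13, Cyp7b1 and Cyp4f18 were higher (9.39% of all genes) and Cyp26b1 was lower (7.92% of all genes). The share of P450 genes called was thus no larger than that of genes in general in either genotype. The share called was higher at higher levels. Among genes with an average log2 CPM of 1 or more, 2 of 20 P450 genes and 13.7% of all genes were called in labelled Abca7 mice, and 4 of 20 and 20.4% in control mice. The median absolute log2 fold change of the 35 genes was 0.134 in labelled Abca7 mice (0.093 for all genes) and 0.15 in control mice (0.108 for all genes). The signed medians were 0.041 in labelled Abca7 mice and 0.052 in control mice, against 0.005 for all genes in both.

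**Figure D2:**
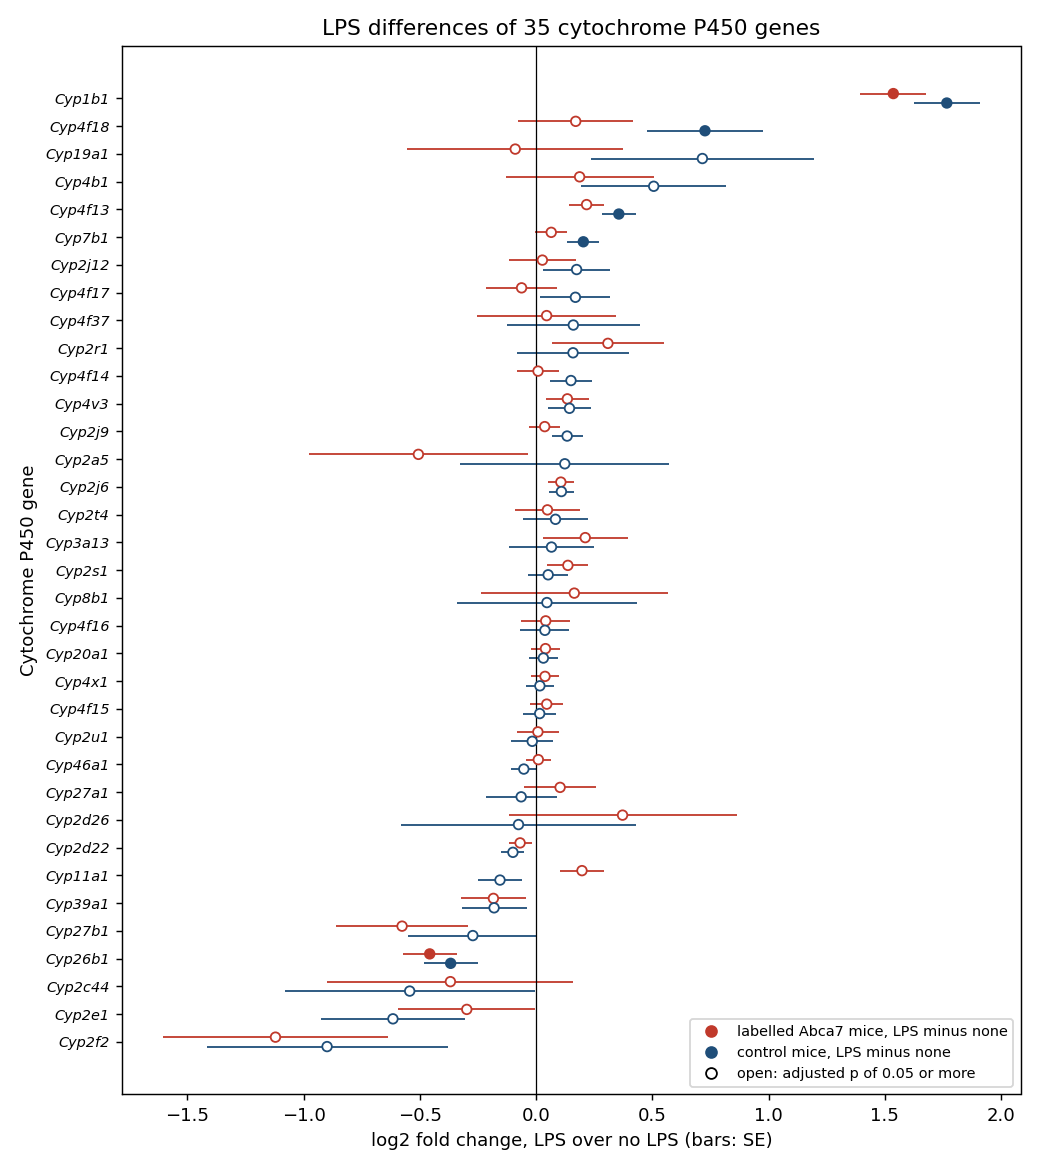
Log2 fold change, LPS over no LPS, of 35 P450 genes in labelled Abca7 mice (red) and control mice (blue). Bars are standard errors, filled points have an adjusted p under 0.05, and only Cyp1b1 and Cyp26b1 are filled in both genotypes.

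Cyp1b1 (ENSMUSG00000024087, chr17:79706953-79715041 on mm10) rose in both genotypes and had the largest rise of the family. The enzyme oxidises estradiol, retinoids and arachidonic acid, is induced through AhR, and in brain is known from the walls of blood vessels. Its lowest, median and highest values were 7.02, 12.2 and 15.8 CPM in labelled Abca7 mice with LPS, against 3.74, 4.02 and 4.24 CPM in labelled Abca7 mice without LPS. In control mice they were 13.4, 14.2 and 14.7 CPM with LPS, against 3.24, 4.15 and 4.95 CPM without LPS. Every LPS library lay above every library without LPS of the same genotype. The log2 fold change was 1.54 ± 0.14 (SE) in labelled Abca7 mice (2.90-fold, adjusted p = 3.96e-09) and 1.77 ± 0.14 in control mice (3.40-fold, adjusted p = 1.63e-10). An exact two-sided permutation test of 6 against 6 gave its smallest possible p, 0.00216, in each genotype. Replicate 4 was the lowest of the labelled Abca7 LPS group, and without it the log2 fold change in those mice was 1.64 (adjusted p = 2.88e-11). Among mice of 55 days the means were 14.9 CPM (n = 2) against 4.09 CPM (n = 3) in labelled Abca7 mice, and 14.3 CPM (n = 2) against 4.15 CPM (n = 2) in control mice. Among mice of 56 days they were 12.2 CPM (n = 2) against 4 CPM (n = 1) in labelled Abca7 mice, and 13.7 CPM (n = 3) against 3.83 CPM (n = 3) in control mice, in each case with LPS against without.

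The spread of Cyp1b1 under LPS was wider in labelled Abca7 mice, with 11.7 ± 3.34 CPM, than in control mice, with 14.1 ± 0.529 CPM (mean ± SD, n = 6 each). No test of this difference in spread was made. Their level under LPS differed by -0.26 ± 0.13 on the log2 scale (labelled Abca7 over control, adjusted p = 0.640 by edgeR). The difference between the LPS effects was -0.23 ± 0.20 (adjusted p = 1 by edgeR). Cyp1b1 shared no 50-base sequence with another gene.

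Around Cyp1b1, AhR itself and the listed genes of xenobiotic sensing were called in both directions. Of 13 tested receptors and regulators, 3 rose and 2 fell in labelled Abca7 mice, where 6.65% of all genes were higher and 5.18% lower. In control mice 4 rose and 2 fell, where 9.39% of all genes were higher and 7.92% lower. Ahr, which encodes the receptor, was lower with LPS by a log2 fold change of -0.25 ± 0.06 in labelled Abca7 mice (adjusted p = 0.00888) and -0.22 ± 0.06 in control mice (adjusted p = 0.0160). These calls were lost in 2 of 33 alternatives in labelled Abca7 mice and 3 of 33 in control mice. The AhR-inducible repressor of AhR, Tiparp, rose by 0.73 ± 0.10 in labelled Abca7 mice (adjusted p = 6.93e-06) and 0.94 ± 0.10 in control mice (adjusted p = 6.64e-08). Nfe2l2, a regulator of oxidative stress genes, rose by 0.58 ± 0.07 in labelled Abca7 mice (adjusted p = 2.58e-07) and 0.76 ± 0.07 in control mice (adjusted p = 1.2e-09). Ppara, a fatty acid receptor, rose by 0.31 in labelled Abca7 mice and 0.33 in control mice. The retinoid X receptor gene Rxrg fell by 0.41 in labelled Abca7 mice and 0.38 in control mice. Rxra rose by 0.16 in control mice, and in labelled Abca7 mice had a log2 fold change of 0.09. None of 15 conjugating enzymes, which act after P450 enzymes on foreign compounds, was called in either genotype (edgeR). Over all genes, 11.8% were called in labelled Abca7 mice and 17.3% in control mice. Of the 15, 2 in labelled Abca7 mice and 1 in control mice had an unadjusted p under 0.05.

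Markers of vessel cells moved with LPS as well. The 12 endothelial markers were summed in each library, with lowest, median and highest values of 248, 276 and 306 CPM in labelled Abca7 mice with LPS, against 366, 382 and 404 CPM in labelled Abca7 mice without LPS. In control mice the values were 262, 269 and 280 CPM with LPS, against 368, 382 and 395 CPM without LPS (exact permutation p = 0.00216 and adjusted p = 0.00936 over 26 tests in each genotype). Of the 12, 9 fell and 2 rose in each genotype, while Cyp1b1 rose. Among all genes, 5.18% were lower and 6.65% higher in labelled Abca7 mice, and 7.92% were lower and 9.39% higher in control mice. The pericyte and smooth muscle markers had 185, 193 and 209 CPM in labelled Abca7 mice with LPS, against 193, 207 and 230 CPM without LPS (exact permutation p = 0.0628). They had 189, 192 and 211 CPM in control mice with LPS, against 206, 212 and 220 CPM without LPS (exact permutation p = 0.00649). The part of these cells in the Cyp1b1 result was not tested. Microglial markers summed to medians of 251 CPM in labelled Abca7 mice with LPS and 306 CPM without LPS, and of 244 CPM in control mice with LPS and 309 CPM without LPS (exact permutation p = 0.00216 in each genotype). The sums for neurons, astrocytes, oligodendrocytes, meningeal fibroblasts, erythrocytes, hippocampus and striatum had adjusted p of 0.16 or more in both genotypes (exact permutation tests, adjusted over 26). Single genes of these lists did change. Of 10 meningeal fibroblast markers, 5 fell and 1 rose in labelled Abca7 mice, and 4 fell and 1 rose in control mice. Of 10 astrocyte markers, 3 rose in labelled Abca7 mice and 4 in control mice. Each other list in this comparison had at most 1 called gene per genotype.

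**Figure D3:**
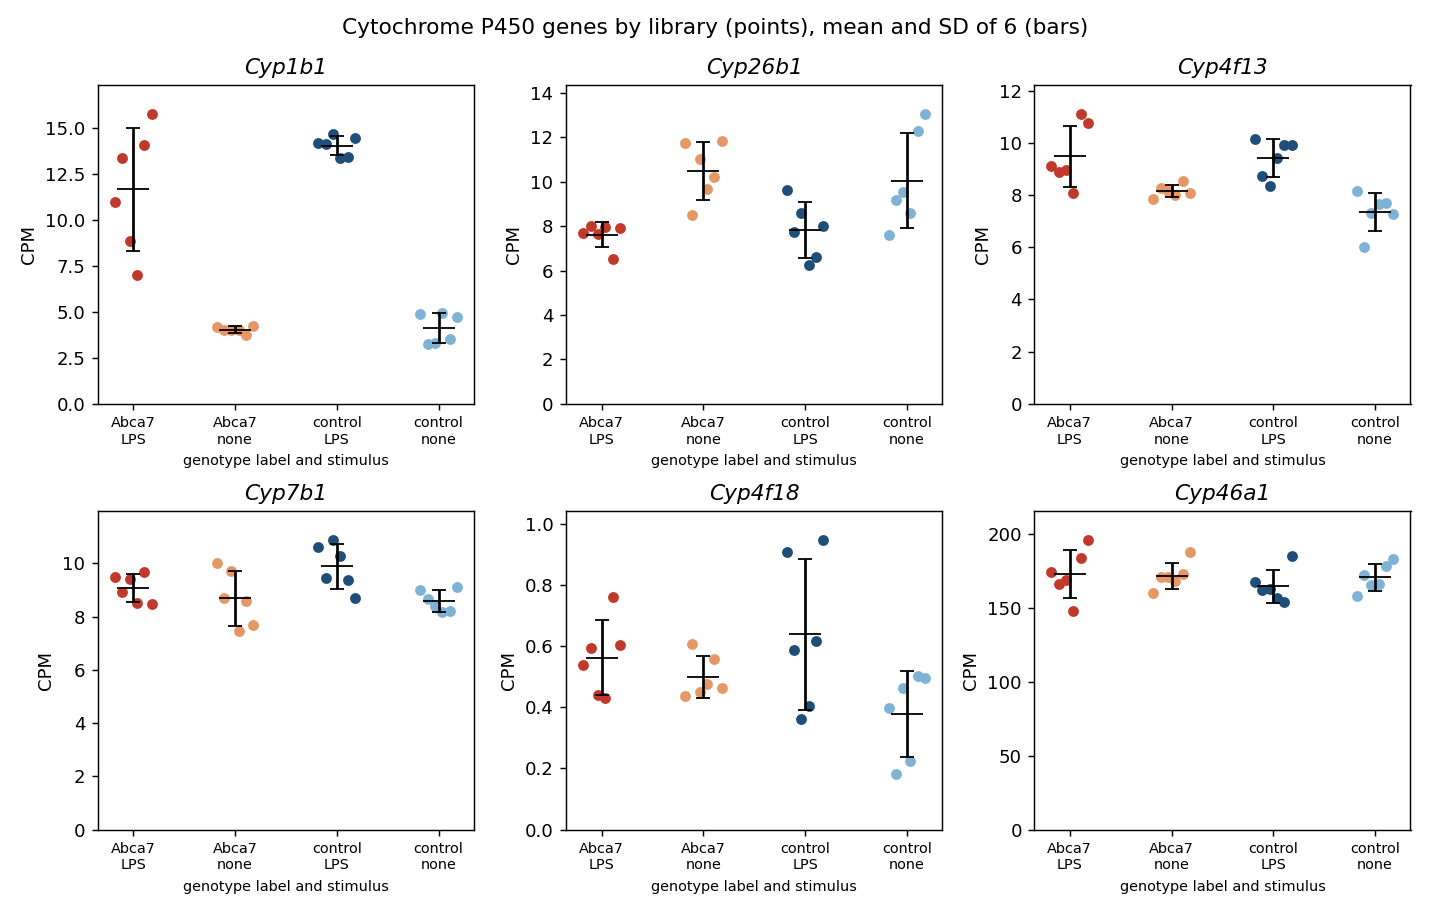
CPM of 6 P450 genes in each library (points), with the mean and SD of each group of 6 (bars). The axis names give the genotype label and stimulus; for Cyp1b1 every LPS point lies above every point without LPS of the same genotype, whereas the points of Cyp46a1 overlap in all groups.

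Cyp26b1 (ENSMUSG00000063415, chr6:84571414-84593908) was lower with LPS. It encodes a retinoic acid hydroxylase that limits retinoic acid signalling. The lowest, median and highest values were 6.5, 7.81 and 8.02 CPM in labelled Abca7 mice with LPS, against 8.48, 10.6 and 11.8 CPM in labelled Abca7 mice without LPS, so the groups did not overlap. In control mice they were 6.25, 7.89 and 9.64 CPM with LPS, against 7.62, 9.37 and 13.1 CPM without LPS, and these groups overlapped. The log2 fold change was -0.46 ± 0.12 in labelled Abca7 mice (adjusted p = 0.00811) and -0.37 ± 0.12 in control mice (adjusted p = 0.0277). Without labelled Abca7 LPS replicate 4 the first was -0.47 (adjusted p = 0.00967). An exact permutation test of the control groups gave p = 0.0541. The call in control mice was lost when the level of Ttr, a choroid plexus gene, entered the model (log2 fold change -0.03, adjusted p = 0.947). Choroid plexus markers differed in the control mice, with lowest, median and highest sums of 198, 307 and 565 CPM with LPS, against 18.2, 29.2 and 316 CPM without LPS (exact permutation p = 0.0108). In labelled Abca7 mice they were 39, 316 and 451 CPM with LPS, against 65.5, 457 and 520 CPM without LPS (exact permutation p = 0.558). There Cyp26b1 remained called with the Ttr level in the model (log2 fold change -0.49, adjusted p = 0.00129), and it lost its call with surrogate variables (-0.36, adjusted p = 0.0685).

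Stra6, Rdh10 and Aldh1a2, genes of retinol uptake and retinoic acid synthesis, rose with LPS in both genotypes. Of 15 retinoic acid partners, 3 rose and 2 fell in labelled Abca7 mice, where 6.65% of all genes were higher and 5.18% lower. In control mice 4 rose and 2 fell, where 9.39% of all genes were higher and 7.92% lower. The median log2 fold change of the 15 was -0.018 in labelled Abca7 mice and 0.025 in control mice. Stra6, the retinol transporter gene, averaged 21.9 CPM in labelled Abca7 mice with LPS and 6.16 CPM in labelled Abca7 mice without LPS, a log2 fold change of 1.83 ± 0.22 (adjusted p = 3.48e-07). In control mice it averaged 29 CPM with LPS and 4.98 CPM without LPS, a change of 2.54 ± 0.22 (adjusted p = 8.71e-10). Replicate 4 of the labelled Abca7 LPS group held 6.38 CPM of Stra6, within the range without LPS, and the change without that library was 2.02. Rdh10, which oxidises retinol, rose by 0.68 ± 0.10 in labelled Abca7 mice (adjusted p = 1.01e-05) and 0.79 ± 0.10 in control mice (adjusted p = 6.85e-07). Aldh1a2, which makes retinoic acid, rose by 0.39 ± 0.12 in labelled Abca7 mice (adjusted p = 0.0335) and 0.52 ± 0.12 in control mice (adjusted p = 0.00257). Crabp2, a retinoic acid carrier, fell by 0.71 in labelled Abca7 mice and 0.77 in control mice. The receptor gene Rarb fell by 0.25 in labelled Abca7 mice and 0.23 in control mice, and Aldh1a1 rose by 0.37 in control mice, with 0.16 in labelled Abca7 mice not called. The meningeal fibroblast markers, which include Aldh1a2, summed to 418 to 663 CPM in labelled Abca7 mice with LPS, 539 to 634 CPM in labelled Abca7 mice without LPS, 548 to 600 CPM in control mice with LPS and 527 to 669 CPM in control mice without LPS.

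Among the oxysterol enzymes, the abundant Cyp46a1 was not called. Its lowest, median and highest values were 148, 172 and 196 CPM in labelled Abca7 mice with LPS, against 160, 171 and 188 CPM in labelled Abca7 mice without LPS. In control mice they were 154, 162 and 185 CPM with LPS, against 158, 169 and 183 CPM without LPS. The log2 fold change was 0.01 ± 0.05 in labelled Abca7 mice (adjusted p = 0.950) and -0.05 ± 0.05 in control mice (adjusted p = 0.568). Cyp7b1 (ENSMUSG00000039519, chr3:18071950-18243338), which hydroxylates oxysterols and neurosteroids, was called in control mice alone. It had 8.47, 9.17 and 9.68 CPM in labelled Abca7 mice with LPS, against 7.45, 8.65 and 10.01 CPM in labelled Abca7 mice without LPS. In control mice it had 8.71, 9.86 and 10.9 CPM with LPS, against 8.16, 8.53 and 9.13 CPM without LPS. The groups overlapped in both genotypes. The log2 fold change was 0.06 ± 0.07 (adjusted p = 0.642) in labelled Abca7 mice and 0.20 ± 0.07 (adjusted p = 0.0406) in control mice. The difference between the LPS effects was not called (-0.14 ± 0.10, adjusted p = 1 by edgeR). The control call was lost in 12 of 33 alternatives, 8 of which left out 1 library.

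The gene before Cyp7b1 in one oxysterol route moved far more than Cyp7b1. Cholesterol hydroxylase Ch25h makes an oxysterol that Cyp7b1 converts to the ligand of the immune cell receptor Gpr183. Hsd3b7 acts after that step. Ch25h averaged 8.93 CPM in labelled Abca7 mice with LPS and 0.404 CPM in labelled Abca7 mice without LPS (log2 fold change 4.49 ± 0.26, adjusted p = 3.44e-13). In control mice it averaged 11.5 CPM with LPS and 0.315 CPM without LPS (5.18 ± 0.26, adjusted p = 2.1e-14). Its exons overlap Gm26902, so its counts may include reads of that gene. Without labelled Abca7 LPS replicate 4, which had 3.08 CPM of Ch25h, the change in labelled Abca7 mice was 4.66. Hsd3b7 had log2 fold changes of -0.01 in labelled Abca7 mice and -0.09 in control mice. Gpr183 had -0.53 ± 0.24 (adjusted p = 0.168) in labelled Abca7 mice and -0.40 ± 0.23 (adjusted p = 0.274) in control mice. Of 14 tested oxysterol and steroid partners, only Ch25h and Tspo, a mitochondrial cholesterol-binding protein, were called, and both rose in each genotype. Genes called higher made up 6.65% of all genes in labelled Abca7 mice and 9.39% in control mice. Tspo rose by 0.70 ± 0.13 in labelled Abca7 mice (adjusted p = 0.00047) and 1.27 ± 0.14 in control mice (adjusted p = 4.07e-08). Cyp27a1, Cyp39a1 and Cyp8b1, which hydroxylate sterols on the way to bile acids, were not called, with log2 fold changes of 0.10, -0.18 and 0.16 in labelled Abca7 mice and -0.06, -0.18 and 0.05 in control mice.

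In the fatty acid and eicosanoid group, 2 of 14 tested genes rose in control mice, where 9.39% of all genes were higher. None was called in labelled Abca7 mice by edgeR, against 11.8% of all genes, and 1 had an unadjusted p under 0.05 there. Cyp4f13 (ENSMUSG00000024055, chr17:32924688-32947402), an enzyme of the fatty acid hydroxylase subfamily CYP4F, had 8.08, 9.02 and 11.1 CPM in labelled Abca7 mice with LPS, against 7.86, 8.12 and 8.55 CPM in labelled Abca7 mice without LPS. In control mice it had 8.35, 9.66 and 10.2 CPM with LPS, against 6.01, 7.48 and 8.15 CPM without LPS. The control groups did not overlap, and the labelled Abca7 groups did. The log2 fold change was 0.22 ± 0.07 (adjusted p = 0.0585) in labelled Abca7 mice and 0.36 ± 0.07 (adjusted p = 9.11e-04) in control mice. The difference between these effects was -0.14 ± 0.11 (adjusted p = 1 by edgeR), so the calls do not separate the genotypes. Without replicate 4 of the labelled Abca7 LPS group, without control replicate 2 of the mice without LPS, with DESeq2 and with age in the model, Cyp4f13 was called in labelled Abca7 mice too. With Ttr as a covariate the log2 fold change of Cyp4f13 in control mice was 0.35 (adjusted p = 0.0505), so it was uncalled at nearly the same size.

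Cyp4f18 (ENSMUSG00000003484, chr8:71988482-72009626), which in mouse leukocytes inactivates leukotrienes, was called higher in control mice at a low level. It had 0.432, 0.566 and 0.761 CPM in labelled Abca7 mice with LPS, against 0.438, 0.469 and 0.608 CPM in labelled Abca7 mice without LPS. In control mice it had 0.362, 0.602 and 0.948 CPM with LPS, against 0.181, 0.430 and 0.503 CPM without LPS, and the groups overlapped. The log2 fold change was 0.17 ± 0.25 (adjusted p = 0.754) in labelled Abca7 mice and 0.73 ± 0.25 (adjusted p = 0.0450) in control mice, where an exact permutation test gave p = 0.0606. The call was lost in 18 of 33 alternatives, 13 of which left out 1 library. Its exons overlap Zfp961, so part of its counts may be of that gene. Monocyte markers, 8 of 8 detected, summed to 103, 108 and 123 CPM in labelled Abca7 mice with LPS, against 88.7, 98.6 and 106 CPM in labelled Abca7 mice without LPS (exact permutation p = 0.013). In control mice they summed to 113, 118 and 125 CPM with LPS, against 88, 95.9 and 107 CPM without LPS (exact permutation p = 0.00216). Of these 8 markers, 3 rose and 1 fell in labelled Abca7 mice, where 6.65% of all genes were higher and 5.18% lower. In control mice 5 rose and 1 fell, where 9.39% of all genes were higher and 7.92% lower. In labelled Abca7 mice neutrophil markers summed to 0.706 to 2.02 CPM with LPS, against 0.198 to 1.19 CPM without LPS. In control mice they summed to 1.1 to 3.29 CPM with LPS, against 0.355 to 0.675 CPM without LPS. Only 2 of the 8 neutrophil markers passed the filter of the test, and both rose in each genotype. Elane was at 0 in every library. The part of these cells in the Cyp4f18 result was not tested.

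The remaining 12 tested genes of this group stayed uncalled. They include the CYP2J genes Cyp2j6 (log2 fold change 0.11 ± 0.06 in labelled Abca7 mice and 0.11 ± 0.06 in control mice) and Cyp2j9 (0.04 ± 0.07 in labelled Abca7 mice and 0.13 ± 0.07 in control mice). The fatty acid hydroxylase Cyp4f14 had 0.01 ± 0.09 in labelled Abca7 mice and 0.15 ± 0.09 in control mice. Of 15 tested eicosanoid partners, 3 rose and 2 fell in labelled Abca7 mice, where 6.65% of all genes were higher and 5.18% lower. In control mice 3 rose and 4 fell, where 9.39% of all genes were higher and 7.92% lower. The cyclooxygenase gene Ptgs2 rose by 1.58 ± 0.19 in labelled Abca7 mice (adjusted p = 3.25e-07) and 2.21 ± 0.19 in control mice (adjusted p = 6.79e-10). Replicate 4 held the lowest Ptgs2 of the labelled Abca7 LPS group, 20 CPM, and without it the change there was 1.74. Pla2g4a, the phospholipase that frees arachidonic acid, rose by 0.55 in labelled Abca7 mice and 0.67 in control mice, and the lipoxygenase gene Alox12b by 0.66 in labelled Abca7 mice and 0.76 in control mice. Replicate 4 of the labelled Abca7 LPS group held 3.9 CPM of Alox12b, against 5.97 to 8.1 CPM in the other 5, and without it the change there was 0.76. Ptgs1 fell by 0.32 in labelled Abca7 mice, where replicate 4 with LPS held 12.5 CPM, within the range without LPS, and by 0.29 in control mice, and the leukotriene synthase gene Ltc4s fell by 0.55 in labelled Abca7 mice and 0.56 in control mice, calls that were lost with surrogate variables (adjusted p = 0.0625 in labelled Abca7 mice and 0.116 in control mice). Alox12 had -0.15 ± 0.28 in labelled Abca7 mice and fell by 0.95 ± 0.26 in control mice. The epoxide hydrolase gene Ephx4 had -0.11 ± 0.07 in labelled Abca7 mice and fell by 0.30 ± 0.07 in control mice. Ephx2, which hydrolyses epoxides of fatty acids, had -0.02 ± 0.06 in labelled Abca7 mice and 0.10 ± 0.06 in control mice.

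No gene of steroid hormone synthesis, vitamin D metabolism or the other CYP2 and CYP3 enzymes was called by edgeR. Over all genes, 11.8% were called in labelled Abca7 mice and 17.3% in control mice. In these role groups, 1 gene in labelled Abca7 mice and 0 in control mice had an unadjusted p under 0.05. Cyp11a1, which starts steroid synthesis from cholesterol, had the only unadjusted p under 0.05 for a difference between the LPS effects. It averaged 6.74 ± 0.920 CPM in labelled Abca7 mice with LPS and 5.87 ± 0.853 CPM in labelled Abca7 mice without LPS, but 5.64 ± 0.475 CPM in control mice with LPS and 6.27 ± 0.722 CPM in control mice without LPS (SD, n = 6 each). The interaction was 0.35 ± 0.14 on the log2 scale (adjusted p = 1 by edgeR), and its exons overlap Gm17322. Cyp19a1, the aromatase that makes estradiol, had 2 to 22 counts per library and log2 fold changes of -0.09 ± 0.46 in labelled Abca7 mice and 0.72 ± 0.48 in control mice. Cyp27b1, which activates vitamin D, had -0.58 ± 0.29 (adjusted p = 0.221) in labelled Abca7 mice and -0.27 ± 0.28 in control mice, and the hydroxylase Cyp2r1, which acts before it, had 0.31 ± 0.24 in labelled Abca7 mice and 0.16 ± 0.24 in control mice. The largest uncalled change was that of Cyp2f2, with -1.12 ± 0.48 (adjusted p = 0.150) in labelled Abca7 mice and -0.90 ± 0.52 (adjusted p = 0.265) in control mice, at 1 to 27 counts per library. It was called lower in labelled Abca7 mice by limma voom and without labelled Abca7 LPS replicate 5, in control mice without control LPS replicate 1, and in both genotypes with surrogate variables in the model. Cyp2d22, the most abundant of the CYP2 enzymes, had -0.07 ± 0.05 in labelled Abca7 mice and -0.10 ± 0.05 in control mice.

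For the P450 genes with an average log2 CPM of 1 or more, the 95% intervals of uncalled changes were narrow. Here and below they use a normal quantile, which makes them somewhat too narrow. The 18 uncalled genes in labelled Abca7 mice had log2 fold changes of -0.184 to 0.217, and no 95% interval reached beyond 0.458 in size, the bound for Cyp39a1. The 16 in control mice had -0.181 to 0.174, with a largest bound of 0.457, for Cyp2j12. Below that level the intervals were wide, with bounds up to 2.07 in labelled Abca7 mice and 1.92 in control mice, both for Cyp2f2.

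The redox partners that feed electrons to P450 enzymes had median log2 fold changes of -0.012 in labelled Abca7 mice and -0.004 in control mice. Of 12 tested, none was called in labelled Abca7 mice by edgeR (2 had an unadjusted p under 0.05), where 11.8% of all genes were called. In control mice 1 rose and 1 fell, where 17.3% of all genes were called. Por averaged 58.9 CPM in labelled Abca7 mice with LPS and 54.4 CPM in labelled Abca7 mice without LPS (log2 fold change 0.12 ± 0.04, adjusted p = 0.0594). Control mice averaged 60.9 CPM with LPS and 54.2 CPM without LPS (0.17 ± 0.04, adjusted p = 0.00281), a call lost when Ttr was a covariate (log2 fold change 0.12, adjusted p = 0.25). The cytochrome b5 gene Cyb5a had -0.14 ± 0.05 (adjusted p = 0.0579) in labelled Abca7 mice and fell by 0.16 ± 0.05 (adjusted p = 0.0177) in control mice. Of 13 genes of heme synthesis and breakdown, the heme oxygenase gene Hmox1 rose in both genotypes, by 0.48 ± 0.12 in labelled Abca7 mice (adjusted p = 0.00649) and 0.79 ± 0.12 in control mice (adjusted p = 1.24e-05). Replicate 4 of the labelled Abca7 LPS group held 3.33 CPM of Hmox1, within the range of the labelled Abca7 mice without LPS. The biliverdin reductase gene Blvrb had -0.03 in labelled Abca7 mice and fell by 0.31 in control mice. No other heme gene of the 13 was called, against 11.8% of all genes in labelled Abca7 mice and 17.3% in control mice. None of 4 tested vitamin D partners was called by edgeR, against 11.8% of all genes in labelled Abca7 mice and 17.3% in control mice. Of these 4, 1 in labelled Abca7 mice and 0 in control mice had an unadjusted p under 0.05. The sterol demethylase gene Cyp51, a P450 whose symbol lies outside the naming rule, had log2 fold changes of -0.06 ± 0.06 in labelled Abca7 mice and -0.04 ± 0.06 in control mice.

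**Figure D4:**
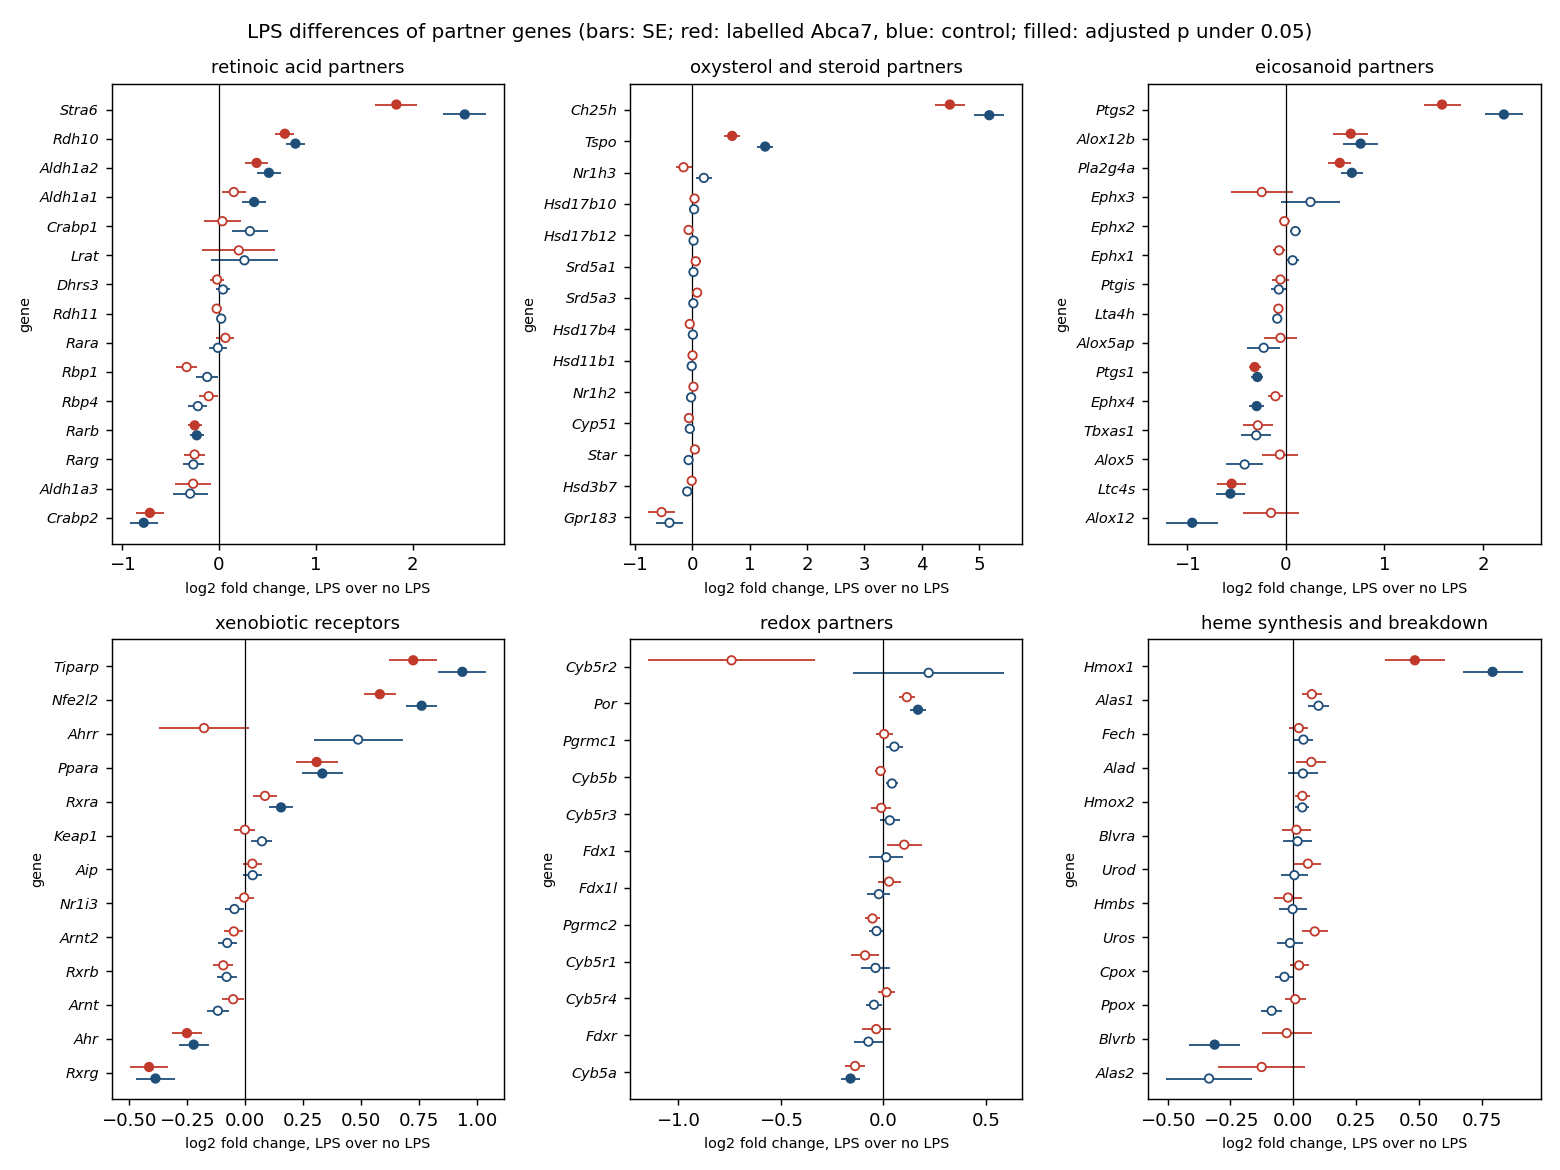
Log2 fold change, LPS over no LPS, with its standard error, of genes that work beside P450 enzymes, in labelled Abca7 mice (red) and control mice (blue). Filled points have an adjusted p under 0.05. Ch25h, Stra6 and Ptgs2 lie furthest to the right in both genotypes, and the axes of the panels differ.

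The genotype label was not followed by a called change in any P450 gene. Under LPS, none of the 35 genes was called between labelled Abca7 and control mice, and none of 21891 genes was (0%); 1 P450 gene, Cyp11a1, had an unadjusted p under 0.05 (log2 fold change 0.26 ± 0.10, adjusted p = 0.478 by edgeR). Without LPS, none of the 35 was called, against 7 of all genes (0.032%, with 0.0137% higher and 0.0183% lower), and none had an unadjusted p under 0.05. For the interaction, none of the 35 and none of all genes was called (0%), and Cyp11a1 alone of the 35 had an unadjusted p under 0.05. Without control replicate 1 of the mice without LPS, 7 of all genes were called for the interaction, none of them a P450 gene. Limma voom also called no P450 gene in these 3 contrasts, and neither did DESeq2, which gave adjusted p-values for 26 of the 35 under LPS and 31 of the 35 without LPS. For the 20 genes with an average log2 CPM of 1 or more, no 95% interval of the genotype difference reached beyond 0.524 in size under LPS (Cyp1b1) or beyond 0.54 without LPS (Cyp27a1). For the interaction the largest bound was 0.62, for Cyp11a1.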

How the data were processed

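Per the labels' protocols and the series text, total RNA of cortex was sequenced on an Illumina instrument. The submitters' processing notes name STAR 2.5.2b and mm10, and the series text names the MAP-RSeq workflow. The authors deposited its raw, unnormalized read counts for each gene. The table also holds a length per gene, which the deposited header calls coding length; this other column served to set levels per kilobase. No source at hand stated the gene annotation, the use of strand or how multiply matching reads were counted. The 24 libraries held 48149131 to 75741388 counts, and 0 columns belonged to other samples.

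Genes were kept with filterByExpr (21891 genes, which held 99.96% or more of every library), scaled with TMM and fitted with 1 coefficient per group in edgeR 4.0.16 (R 4.3.3). Quasi-likelihood F tests covered the LPS effect in each genotype, the genotype effect with and without LPS, and the interaction, and p-values were adjusted by Benjamini-Hochberg over the 21891 genes, with 0.05 as the threshold. All tests were two-sided. Standard errors were derived from each log2 fold change and its F statistic. The 95% intervals use these errors with a normal quantile and are somewhat too narrow. That of Cyp1b1 between genotypes under LPS (-0.524 to -0.0029) excluded 0, although the F test gave an unadjusted p = 0.0582. CPM use TMM-scaled totals. Single values were compared with exact permutation tests, which cannot go below 0.00216, and 26 marker sums were adjusted together. The LPS effects of the 2 genotypes share no libraries, but the interaction and the genotype effects use the libraries of both. The edgeR test of the LPS effect in control mice was tried on simulated data. The other contrasts and tests were not.

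The P450 genes, partner lists and marker lists were chosen with earlier results of these data known. Named genes are all P450 genes called in any contrast, those that lead their role group, and listed partner genes that were called. Replicate numbers only name libraries. Alternatives were another scaling, no filter, DESeq2 1.42.0, limma 3.58.1 voom, only the 2 groups compared, age, Ttr level or surrogate variables (sva 3.50.0) in the model, ribosomal loci left out, and each library left out. Overlaps and shared 50-base sequences were read from GENCODE M21, and all 36 genes are protein-coding there. Of the 36, 8 have exons that overlap another gene, and 1, Cyp2a5, shares over 20% of its 50-base sequences with others (37.0%, mostly Cyp2a4). Protein sequences were not analysed here.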

Additional observations from a re-analysis of the deposited data

Results flagged for a closer look

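In 144 sets of 6 libraries (36 P450 genes in 4 groups), the lowest or highest library stood apart by Dixon's criterion on log2 CPM in 10. Chance gives about 1 in 20. In labelled Abca7 mice with LPS, Cyp26b1 was 6.5 CPM in replicate 5 against 7.65 to 8.02 in the others, Cyp2s1 was 7.06 CPM in the same library against 5.6 to 5.99, Cyp2j9 was 17.4 CPM in replicate 6 against 20.6 to 21.7, and Cyp2d26 was 0 CPM in replicate 4 against 0.13 to 0.208. In control mice with LPS, replicate 1 held 0.167 CPM of Cyp2c44 against 0.0906 to 0.111 and 1.98 CPM of Cyp2t4 against 1.59 to 1.71. In the same group Cyp4f17 was 2.26 CPM in replicate 4 against 1.54 to 1.74, and Cyp4f14 was 4.92 CPM in replicate 6 against 6.48 to 6.63. In labelled Abca7 mice without LPS, Cyp2t4 was 1.41 CPM in replicate 2 against 1.66 to 1.82, and Cyp3a13 was 0.622 CPM in replicate 1 against 1 to 1.2. Of these genes only Cyp26b1 was called in a comparison.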

How the results depend on the processing

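Cyp1b1 kept its rise in both genotypes under all 33 alternatives (log2 fold change 1.43 to 1.71 in labelled Abca7 mice and 1.71 to 1.87 in control mice). In labelled Abca7 mice the count of called P450 genes was 2 to 3 over all alternatives. Cyp26b1 lost its call there with surrogate variables (adjusted p = 0.0685). In control mice 5 genes were called, but 3 with no filter, 3 with only the 2 groups compared, 3 with surrogate variables, 1 (Cyp1b1) with Ttr level in the model, and 3 to 5 when 1 library was left out; it was 3 without control LPS replicates 2, 4 or 5 or control replicates 2, 4 or 5 without LPS. The cause was not tested. Cyp26b1 lost its control call in 7 alternatives, among them those without control LPS replicate 4 or 5 or control replicate 5 or 6 without LPS. Its log2 fold change in control mice was -0.44 to -0.03 over all 33 alternatives. Cyp4f13 lost it with Ttr level alone (log2 fold change 0.35, adjusted p = 0.0505) and ranged over 0.306 to 0.405. Over the alternatives Cyp7b1 ranged over 0.051 to 0.236 (adjusted p up to 0.708) and Cyp4f18 over 0.581 to 0.848 (up to 0.291). Surrogate variables added Cyp2f2 in both genotypes and Cyp11a1 in labelled Abca7 mice, and limma voom added Cyp2f2 in labelled Abca7 mice. Cyp2f2 was also called in labelled Abca7 mice without labelled Abca7 LPS replicate 5 and in control mice without control LPS replicate 1. No P450 gene that received an adjusted p was called for genotype or interaction under the alternatives run; the interaction cannot be fitted with only the 2 groups compared.

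Of the partner genes, Ltc4s lost its calls in both genotypes with surrogate variables, Alox12 lost its call without control replicate 1 of the mice without LPS (adjusted p = 0.0508), and partner changes of less than 0.5 on the log2 scale, other than those of Por and Ahr, were not followed through the alternatives. Over all genes, LPS changed 3790 in control mice, but 1626 with Ttr level. The genotype effect without LPS called 7 genes, but 31 with DESeq2, 49 with age, 125 with surrogate variables, 3 with Ttr level and 3 with only the 2 groups compared. Leaving out 1 library gave 2 to 38, with 38 without control replicate 1 and 19 without labelled Abca7 replicate 1 of the mice without LPS, 2 without labelled Abca7 replicate 3 or 4 or control replicate 4 or 6, 3 without control replicate 3, and 4 without labelled Abca7 replicate 5 or 6 or control replicate 2 or 5 of those mice. Under LPS it called 0, but 1 with limma voom, 2 with DESeq2, 2 with age, 3 with surrogate variables and 1 without control LPS replicate 4. The interaction called 0, but 7 without control replicate 1 of the mice without LPS. Below an average log2 CPM of 1, counting error limits what a test can show. No paired analysis was possible because replicate numbers follow the order of the series and pair no animals.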
